A study of Mus musculus with 12 samples.

Results

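In primary mouse embryonic fibroblasts (MEFs), 1091 regions carried a listed peak of H3K27me3 (histone H3 trimethylated on lysine 27) in the mock-treated cells of both genotypes and in the doxorubicin-treated cells of neither. They are the wild-type (WT) mock peaks that overlapped a knockout (KO) mock peak by at least 1 bp and no peak of the WT or KO doxorubicin list, and they are called mock-only peaks here. They made up 6.75% of the 16160 WT mock peaks and 10.6% of the 10296 WT mock peaks shared with KO mock (95% exact binomial interval 10.0 to 11.2%, which covers counting error over peaks only). They were chosen by the presence and absence of H3K27me3 peaks, so their H3K27me3 scores, widths and positions are given as a description. H3K4me3 (trimethylation of lysine 4) was not used to choose them.

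The study profiled both marks by chromatin immunoprecipitation with sequencing, and its title names the long noncoding RNA lincRNA-p21, Polycomb target genes and the G1/S checkpoint. Cells were WT (lincRNA-p21+/+) or KO (lincRNA-p21-/-) primary MEFs of a hybrid 129/B6 strain. Each genotype was mock treated or given doxorubicin, a drug that damages DNA, at a labelled 0.5 mM for 24 h (the unit is printed as labelled). Each mark had 1 library per condition, so no difference between conditions can be set against replicate spread and no p-value is given. A difference between conditions cannot be told apart from a difference between single libraries. The number of embryos behind a culture is not given in the sources used here, and the fibroblast identity and the deleted locus were not checked because no gene annotation of the files' build, mm9, was used.

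As background, H3K27me3 is laid down by Polycomb repressive complex 2 and marks silenced genes, many of them developmental regulators, often as broad domains. H3K4me3 marks the promoters of active or poised genes, and promoters that carry both marks are called bivalent. A peak list records where a caller found enrichment past a threshold, so a region can leave a list while some of its signal remains.

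H3K27me3 peaks numbered 16160 (WT) and 16580 (KO) in the mock lists and 17517 (WT) and 17828 (KO) in the doxorubicin lists. Median peak width was 2015 bp in WT mock, 1391 bp in KO mock, and 1475 bp (WT) and 1310 bp (KO) after doxorubicin. The lists covered 48.0, 36.3, 39.0 and 35.9 Mb in that order, so the WT mock list, from which the mock-only peaks were drawn, covered the most genome with the fewest peaks. The score of a peak is the authors' own, 10 times the negative log10 of its p-value, and no listed peak had a score under 80. Read depth is unknown, and scores were ranked only within a list.

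Mock-only peaks were mostly weak and narrow. Their median score was 119 in WT mock (middle 50% 93.4 to 162, highest 593), and the highest-scoring KO mock peak over each had a median score of 114 (94.5 to 152, highest 2646). The WT mock median lay near the 101 of WT mock peaks found in no other list and below the 319 of WT mock peaks found in all 4 lists. The remaining classes of WT mock peaks, each found in some of the other lists, had medians of 115 to 146. Low scores were thus not particular to mock-only peaks. The medians of mock-only peaks stood at the 33.9th percentile of the WT mock list and the 33.3rd of the KO mock list. A score of at least 200 was reached in WT mock by 137 mock-only peaks (12.6%), against 38.4% of all WT mock peaks. In both mock lists it was reached by 32. A further 130 (11.9%) scored under 100 in both. No mock-only peak lay in the upper 10% of the WT mock list, and 107 (9.81%) lay in the upper 50% of both mock lists. The WT mock score exceeded that of the highest overlapping KO mock peak at 572 of the 1091. The libraries have unknown depth, so this count does not compare the genotypes.

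**Figure D1:**
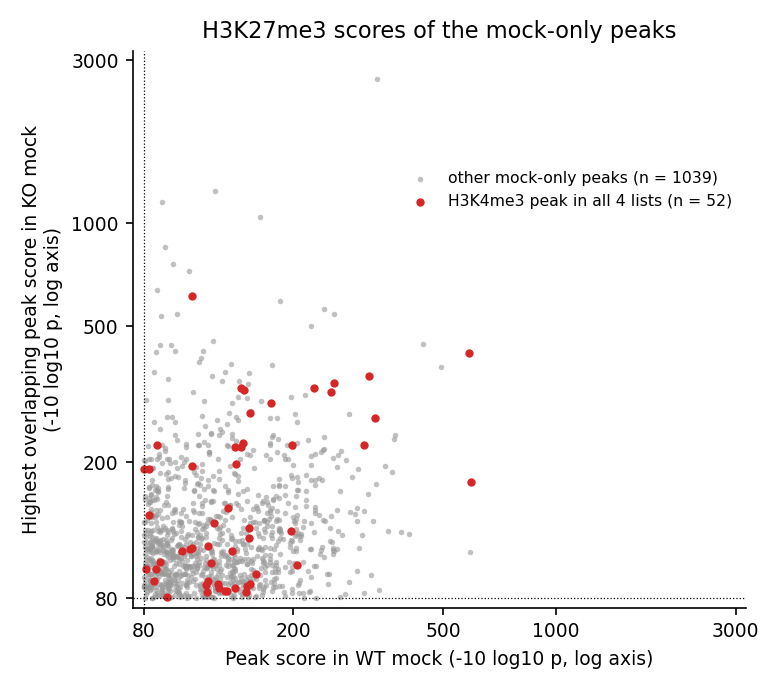
Each point is 1 of the 1091 mock-only peaks, placed by its H3K27me3 score in WT mock (horizontal) and the score of the highest KO mock peak over it (vertical), both on log axes, with dotted lines at the floor of 80. Most points crowd the corner near the floor, and the 52 with an H3K4me3 peak in all 4 lists (red) are spread from that corner up to the highest WT mock score of 593.

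The share of shared peaks that were mock-only fell with score. Among the 10296 WT mock peaks shared with KO mock, split into 10 groups of near-equal size by WT mock score, mock-only peaks were 330 of 1029 (32.1%) in the weakest group, with scores of 80 to 97.5. They were 10.1% in the fifth group, with scores of 183 to 229, and 2.33% in the seventh. The 3 strongest groups, with scores of 393 or more, held 3, 3 and 0. Mock-only peaks were thus most frequent near the lowest score of the lists.

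**Figure D2:**
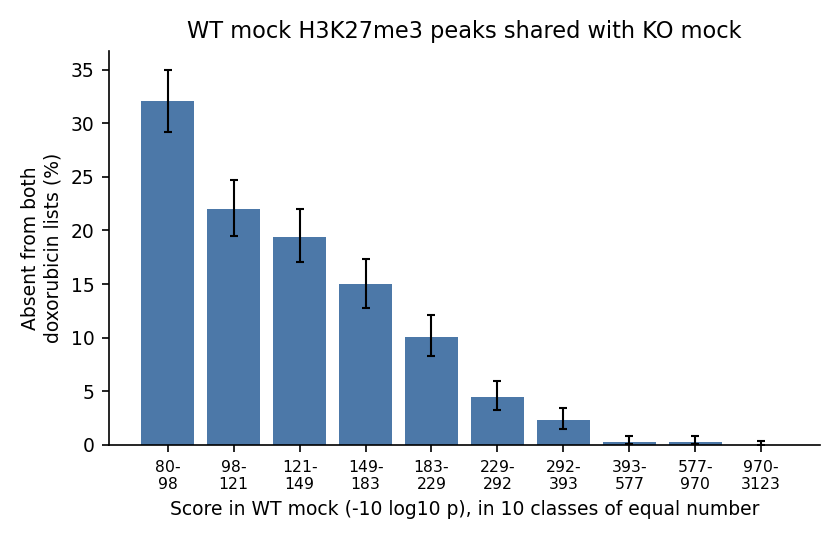
Bars give the percentage of WT mock peaks shared with KO mock that were mock-only, for 10 groups of rising WT mock score, with exact 95% binomial intervals. The share runs from 32.1% in the weakest group to 0 in the strongest.

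The median mock-only peak was 1656 bp wide (middle 50% 1325 to 2122 bp), and all 1091 together covered 1.98 Mb. WT mock peaks found in all 4 lists were 3255 bp wide at the median, and those in no other list 1439 bp. The remaining classes of WT mock peaks, each found in some of the other lists, had median widths of 1584 to 1943 bp. The KO mock overlap was partial at most mock-only peaks, with a median of 936 bp or 54.5% of the WT mock peak. At 55 of the 1091 it covered under 10% of the peak. A single KO mock peak lay over 1020 of them and at least 2 over the other 71.

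At 127 mock-only peaks (11.6%), the KO mock peak that made the match itself overlapped a doxorubicin peak. At these, H3K27me3 that KO mock listed as 1 peak reached into sequence still listed after doxorubicin. Their median score was 185 in KO mock and 105 in WT mock, and the nearest doxorubicin peak was 249 bp away at the median. The 964 without such a KO mock peak had median scores of 111 and 121 and a median distance of 3314 bp. Of the 51 mock-only peaks with a KO mock score of 300 or more, 35 belonged to the 127. The highest KO mock score, 2646, stood over chr3:103367200-103370713, which scored 333 in WT mock and lay 213 bp from a KO doxorubicin peak (named after its values were seen).

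Most mock-only peaks lay close to H3K27me3 that was listed after doxorubicin. The nearest doxorubicin peak of either genotype was 2348 bp away at the median, edge to edge, with the middle 50% between 692 and 10404 bp. The median was 4131 bp to the WT doxorubicin list and 5211 bp to the KO doxorubicin list. A doxorubicin peak lay within 1 kb of 353 mock-only peaks (32.4%), within 5 kb of 692 (63.4%, interval 60.5 to 66.3%) and within 10 kb of 812 (74.4%). Beyond 100 kb there were 65 (5.96%), and beyond 500 kb there were 9.

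By single lists, mock-only peaks lay farther from treated H3K27me3 than from other WT mock H3K27me3. The nearest other WT mock peak was 2396 bp from a mock-only peak at the median, and 2004 bp from a WT mock peak of any class. The medians to the single doxorubicin lists were 4131 bp (WT) and 5211 bp (KO), and the 2348 bp takes the nearer of these lists. Mock-only peaks were chosen to overlap no peak of these lists, so part of the greater distance follows from the choice. The opposite direction gave a like distance to the nearer list. The 1009 WT doxorubicin peaks found in KO doxorubicin and in neither mock list (8.91% of the 11326 shared by the doxorubicin lists) lay 2370 bp from the nearest mock peak of either genotype, with 61.9% within 5 kb. WT mock peaks in no other list lay farther out, at 4946 bp with 50.2% within 5 kb. The nearest WT mock peak found in all 4 lists, a smaller class of 7295 peaks, was 13745 bp away at the median.

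**Figure D3:**
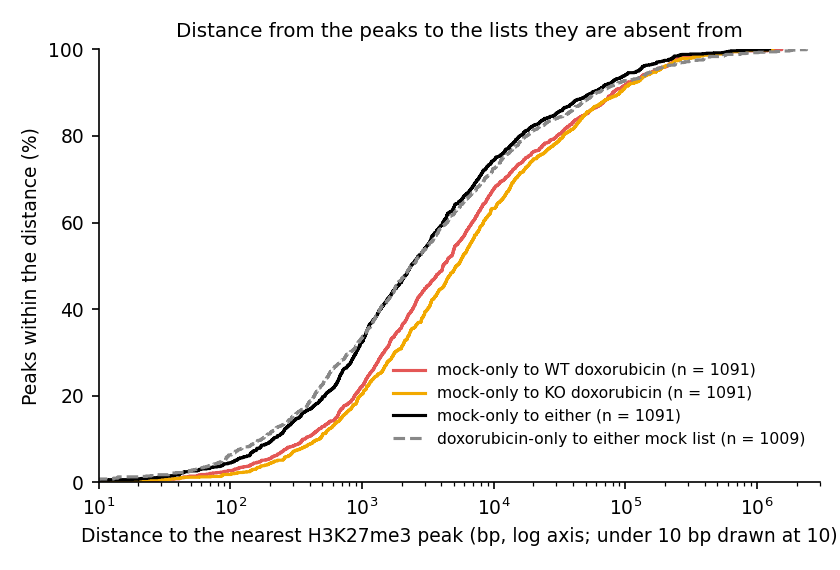
Curves give the percentage of peaks whose nearest H3K27me3 peak in the named list lies within a distance in bp, on a log axis, for mock-only peaks to the doxorubicin lists and for doxorubicin-only peaks to the mock lists. The mock-only curve to either list reaches 32.4% at 1 kb, 63.4% at 5 kb and 74.4% at 10 kb, and runs near the doxorubicin-only curve.

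Within 5 kb, 222 mock-only peaks (20.3%) had doxorubicin peaks on both sides, 470 (43.1%) on 1 side and 399 (36.6%) on neither. Both doxorubicin lists had a peak within that distance at 430, WT doxorubicin alone at 157 and KO doxorubicin alone at 105. More mock-only peaks thus had treated H3K27me3 beside them at this distance than had none, but with peaks under 3 kb apart joined first the direction turned, with a doxorubicin peak within 5 kb at 214 of 578 (37.0%). Just inside the rule, 49 had a doxorubicin peak within 100 bp, and chr14:63899496-63900644 and chrX:55286042-55288195 touched one with a gap of 0 bp. Just outside it, 42 of the 9205 shared peaks that were not mock-only overlapped doxorubicin peaks by 100 bp or less in all, the smallest by 1 bp at chr17:28686010-28687230, with a WT mock score of 91.0.

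H3K27me3 around the mock-only peaks was also lower after doxorubicin than in mock. From 5 to 10 kb outside their edges, H3K27me3 peaks covered 19.2% of the sequence in WT mock and 13.5% in WT doxorubicin, a ratio of 0.703. In the KO cells it covered 13.6% and 11.5%, a ratio of 0.845. The whole lists differed in covered length in the same direction, with ratios of 0.812 in WT and 0.990 in KO. Around WT mock peaks found in all 4 lists the ratios at that distance were 0.835 and 0.976, and around the doxorubicin-only peaks 1.02 and 1.32. Around WT mock peaks found in no other list they were 0.741 and 0.891. Ratios below those of the whole lists in both genotypes were thus seen around both classes of peaks absent from the doxorubicin lists. Both classes were chosen for a mock peak and no doxorubicin peak, and their surroundings can hold other peaks of the same class. Part of this difference thus follows from the choice.

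The numbers in the deposited peak names bear on what absence means. Numbers rise with position in each list, and between 39.0 and 47.2% of them are unused. MACS numbers the regions it calls in order, and what an unused number stood for is not given in the sources used here. For each mock-only peak, the doxorubicin peaks on either side were compared by number. At 168 (15.4%) no number was missing between the neighbouring WT doxorubicin peaks, and at 147 (13.5%) none was missing in KO doxorubicin. In both lists together, 39 (3.57%) had no missing number, which leaves no unused number for a region at that place. At the other 1052, whether a missing number fell on the mock-only peak itself cannot be told from the lists. Among doxorubicin-only peaks read against the mock lists, 57 of 1005 (5.67%) had none missing.

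The 39 had a median WT mock score of 112 and lay 1310 bp from the nearest doxorubicin peak at the median. The 3 with the highest WT mock scores, named after their values were seen, were chr2:29111125-29114432, chr6:29438793-29442436 and chr2:127305041-127307802. Their scores were 325 in WT mock and 135 in KO mock for the first, 282 and 89.3 for the second, and 251 and 322 for the third. In the WT doxorubicin list the nearest peaks were 41, 1838 and 7686 bp away, and in the KO doxorubicin list 1663, 3309 and 1002 bp. By KO mock score another of the 39, also named after its values were seen, was higher: chr2:25249878-25251036 had 89.5 in WT mock and 1153 in KO mock, and lay 204 bp from WT doxorubicin and 974 bp from KO doxorubicin H3K27me3.

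Of the 1091 mock-only peaks, 349 (32.0%, interval 29.2 to 34.8%) lay within 50 kb of another, in 150 chains of neighbouring mock-only peaks, and 742 stood alone. The share over all WT mock peaks was 88.7%, but a class with fewer peaks has fewer neighbours of its own kind. Classes nearer in size had shares on both sides of 32.0%. They were 34.4% of the 1009 doxorubicin-only peaks and 33.4% of the 1083 WT mock peaks found in WT doxorubicin alone of the other lists. They were 37.4% of the 1077 found in both mock lists and WT doxorubicin, and 30.5% of the 984 found in WT mock and both doxorubicin lists. The smaller classes had lower shares, 22.7% of the 833 found in both mock lists and KO doxorubicin and 20.9% of the 776 found in WT mock and KO doxorubicin. Most chains were short, with 118 pairs, 22 of 3 peaks, 6 of 4 and 4 longer. A doxorubicin peak lay between the ends of 98 of the 150, and in 54 every WT mock peak was mock-only. Across the assembled chromosomes, mock-only peaks were 8.50% (chromosome 5) to 15.2% (chromosome 3) of the shared peaks. The most, 122, were on chromosome 2, which also had the most shared peaks, 1073, for a share of 11.4%.

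The longest chain held 7 mock-only peaks on chr15:102860096-102941397. From general knowledge of the mouse genome, with no annotation used, this stretch is at and beyond an end of the HoxC cluster of homeobox genes, which set position along the body axis and are textbook Polycomb targets. In the WT cells H3K27me3 peaks covered 45.9 kb of its 81.3 kb in mock and 9.92 kb after doxorubicin, and in the KO cells 29.0 and 3.63 kb. Its 7 mock-only peaks had WT mock scores of 210 to 585, all above the class median. Both mock libraries listed several times the H3K27me3 of the matching treated library here, with KO doxorubicin the lowest.

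Lower coverage after doxorubicin in both genotypes was also seen at the other 3 chains of 5 or more and at the 6 chains of 4. The 148 kb of chr5:112422699-112570210, with 6 mock-only peaks, were covered over 41.5 kb (mock) and 13.2 kb (doxorubicin) in WT, and 24.5 and 3.6 kb in KO. At chr4:148068181-148203672, with 5, the values were 77.9 and 49.8 kb in WT, and 63.6 and 38.9 kb in KO. The treated libraries listed more H3K27me3 there than in the other chains, and its mock-only peaks had WT mock scores of 83.3 to 161. The 5 on chr7:108599842-108681199 lay in a stretch covered over 12.4 and 2.69 kb in WT, and 12.6 and 0.752 kb in KO. The first of the 6 chains of 4 by chromosome and start, chr2:74847146-74855033, packed them into 7.89 kb, covered over 7.36 kb in WT mock and 5.11 kb in KO mock, with no doxorubicin peak of either genotype. The other chains of 4 kept doxorubicin peaks, over 5.14 to 14.6 kb in WT against 19.9 to 32.2 kb in mock, and over 4.86 to 12.5 kb in KO against 12.2 to 23.5 kb. Since each chain is made of mock-only peaks, part of this difference follows from the choice.

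**Figure D4:**
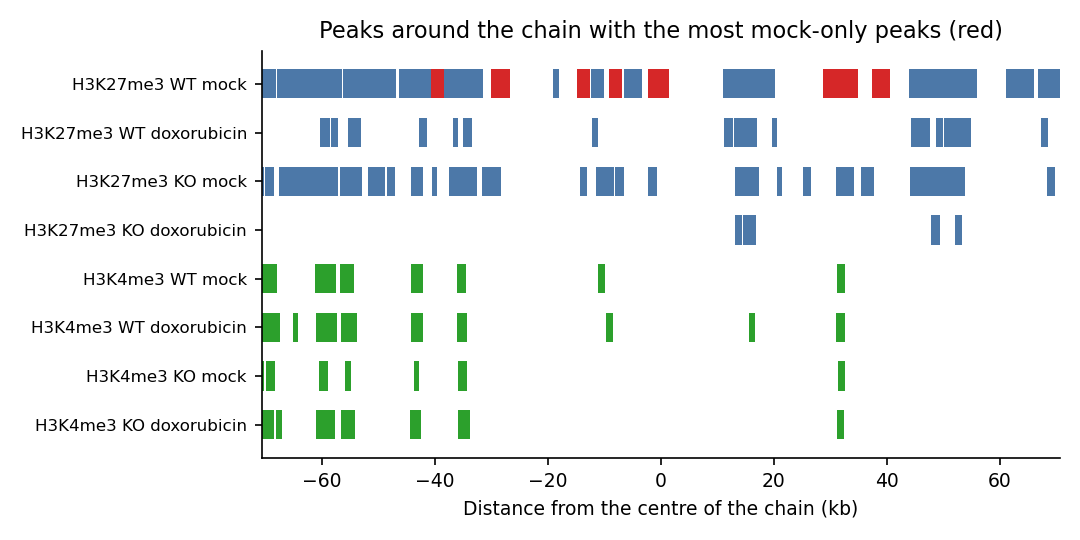
Bars are the H3K27me3 and H3K4me3 peaks of each library around the longest chain, by distance from its centre in kb, with the 7 mock-only peaks in red. Within the chain H3K27me3 covers 45.9 kb in WT mock and 3.63 kb in KO doxorubicin.

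Among single mock-only peaks, the highest WT mock scores were 593 at chr19:59534100-59538933 and 589 at its neighbour chr19:59523248-59528919. Their KO mock scores were far lower in rank, 175 (58.9th percentile of its list) and 109 (29.9th). The nearest WT doxorubicin peaks were 2879 and 12893 bp away, and the nearest KO doxorubicin peaks 196553 and 185701 bp away. Within 25 kb of the first, H3K27me3 covered 18.3 kb in mock and 3.57 kb after doxorubicin in WT, and 8.72 kb and none in KO. Around this pair H3K27me3 was listed most widely in WT mock and not at all in KO doxorubicin.

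The third by score, chr15:102929508-102935662 with 585 in WT mock and 417 in KO mock, belonged to the longest chain and was the widest, at 6155 bp. At chr7:35582846-35587188 the scores were 493 and 381, and doxorubicin peaks lay 6510 bp (WT) and 7115 bp (KO) away. The fifth, chr4:8613389-8616248, scored alike in both genotypes, 441 in WT mock and 443 in KO mock. It lay 34059 bp from WT doxorubicin and 34139 bp from KO doxorubicin peaks, and within 25 kb H3K27me3 covered 4.91 kb in WT mock, 5.52 kb in KO mock and none after doxorubicin. It overlapped no H3K4me3 peak, the nearest being 347 bp away in WT mock. The next 5 had WT mock scores of 365 to 407, and 4 of them belonged to chains described above. The other, chr1:92861237-92866138, scored 386 in WT mock and 125 in KO mock, and lay 906 bp from KO doxorubicin H3K27me3. Among the 5 widest, the one not yet named was chr15:101697296-101702157, 4862 bp wide, with scores of 357 and 126.

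H3K4me3 was rare at mock-only peaks. A WT mock H3K4me3 peak overlapped 63 of the 1091 (5.77%, interval 4.47 to 7.33%), against 14.9% of all WT mock H3K27me3 peaks. In WT doxorubicin it was 70 (6.42%, against 16.9%), in KO mock 55 (5.04%, against 11.5%) and in KO doxorubicin 66 (6.05%, against 11.6%). H3K27me3 peaks found in all 4 lists overlapped WT mock H3K4me3 at 27.8%, those in no other list at 2.15% and doxorubicin-only peaks at 3.87%. Mock-only peaks stood between these classes. The share was lower, 1.29 to 3.35%, for WT mock peaks absent from KO mock and found in WT doxorubicin, KO doxorubicin or both. It was higher for those in both mock lists and WT doxorubicin (7.43%) or KO doxorubicin (12.0%). Within 5 kb of WT mock H3K4me3 lay 204 mock-only peaks (18.7%, against 28.4% of all WT mock H3K27me3 peaks). Within 50 kb lay 794 (72.8%, against 76.0%), a share near that of the whole list.

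The lower share than over all WT mock peaks goes with the lower scores, but classes of peaks also differed at like scores. Among peaks with WT mock scores of 80 to 100, WT mock H3K4me3 overlapped 3.88% of mock-only peaks and 3.65% of all WT mock peaks. Between 100 and 150 the shares were 7.0% and 5.31%, and between 150 and 200 they were 6.22% and 7.12%. From 200 to 300 they were 3.54% (4 of 113, interval 0.973 to 8.82%) and 12.7%. From 300 to 400 they were 16.7% (3 of 18, interval 3.58 to 41.4%) and 19.2%. The interval of the mock-only share holds the share of all WT mock peaks in each of these ranges other than 200 to 300. The share was higher for peaks found in all 4 H3K27me3 lists than for mock-only peaks in each of these score ranges, from 8.79 to 21.4%, though within the mock-only interval from 150 to 200 and from 300 to 400. WT mock peaks in no other list had lower shares than mock-only peaks from 80 to 100 (1.73%) and from 100 to 150 (1.54%). Their shares were 5.69% from 150 to 200, 6.67% from 200 to 300 and 12.5% from 300 to 400.

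Where mock-only peaks carried H3K4me3, most had it in every library. It was listed in all 4 conditions at 52 (4.77%, against 10.1% of all WT mock peaks), in none at 1015 and in some of the 4 at 24 (2.20%, against 7.37%). In WT, 1 mock-only peak had it in mock and not after doxorubicin (0.0917%, against 0.353% of all WT mock peaks), and 8 the reverse (0.733%, against 2.34%). In KO the counts were 2 (0.183%, against 1.30%) and 13 (1.19%, against 1.36%). No mock-only peak had H3K4me3 in both mock lists and neither doxorubicin list (0 of 1091, exact upper bound 0.338%, against 0.0248% of all WT mock peaks). Of the 76 mock-only peaks with H3K4me3 in any list, 24 (31.6%, interval 21.4 to 43.3%) had it in some conditions and not in others, against 42.2% over all WT mock peaks.

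The few with H3K4me3 in both doxorubicin lists and neither mock list numbered 3 (0.275%), named after their values were seen. The share over all WT mock peaks was not computed for this pattern, so the count cannot be read as high or low. Highest of them in WT mock H3K27me3 score was chr6:52113260-52117790, which lies within the HoxA homeobox cluster by general knowledge of the mouse genome. It had H3K27me3 scores of 333 in WT mock and 173 in KO mock. Its H3K4me3 scores, 128 in WT doxorubicin and 98.3 in KO doxorubicin, were the lowest of the 3. The others were chrX:55291440-55293316, with H3K4me3 scores of 173 and 121, and chr15:44618391-44619967, with 171 and 117. All of these H3K4me3 scores are far below the medians at the 52 peaks with H3K4me3 in every condition, given next.

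At the 52 with H3K4me3 in every condition, its median score was 774 (mock) and 1198 (doxorubicin) in WT, and 555 and 1044 in KO. For the 1347 H3K27me3 peaks found in all 4 lists that carried H3K4me3 in all 4, the medians were 723 and 1216 in WT, and 364 and 449 in KO. Their H3K27me3 differed more, with a median WT mock score of 138 and width of 1716 bp at the 52 against 605 and 4598 bp at the 1347. WT mock H3K4me3 covered 48.6% of the mock-only peak at the median and 29.1% of the others. The 52 thus paired weak, narrow H3K27me3 peaks with H3K4me3 peaks whose median scores were near those of the 1347 in WT and above them in KO. Both sets had H3K4me3 medians below those of the whole H3K4me3 lists, which were 1512 (mock) and 1526 (doxorubicin) in WT, and 1162 and 2141 in KO.

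The 10 highest-scoring of the 52 were headed by the chr19 and chr15 peaks above. A score of 3100 is the commonest in each H3K4me3 list, given to 16.4% of peaks in WT mock, 18.2% in WT doxorubicin, 6.80% of those of KO mock and 33.5% of those of KO doxorubicin, so equal values of 3100 do not show equal H3K4me3. It stood in all 4 libraries at chr19:59534100-59538933 and at chr8:94881829-94885058, whose H3K27me3 scores were 318 in WT mock and 359 in KO mock. At chr15:102929508-102935662 H3K4me3 scored 371 in WT mock and 345 in KO mock, and 668 (WT) and 770 (KO) after doxorubicin. Across the 10, WT mock H3K4me3 scores ran from 158, at chr15:102997034-102999786, to 3100.

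Some of the 10 stood far from treated H3K27me3. At chr7:70903352-70905339 the H3K27me3 scores were 257 in WT mock and 340 in KO mock, the nearest doxorubicin peaks were 311812 and 312278 bp away, and H3K4me3 scored 1054 (mock) and 1761 (doxorubicin) in WT and 526 and 2024 in KO. At chr2:115899102-115901528 the H3K27me3 scores were 227 and 329, the distances 212609 and 212989 bp, and the H3K4me3 scores, in the same order, 302, 437, 172 and 239. At chr10:121884509-121887609 the H3K27me3 scores were 198 and 224, the distances 226843 and 227593 bp, and the H3K4me3 scores 1371, 2548, 718 and 2024. At these 3 both marks were listed in the mock conditions and H3K4me3 alone after doxorubicin.

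H3K4me3 was more frequent at the mock-only peaks farthest from treated H3K27me3, by a split at 100 kb that was chosen after seeing the data. WT mock H3K4me3 overlapped 21 of the 65 mock-only peaks beyond 100 kb from any doxorubicin H3K27me3 peak (32.3%, interval 21.2 to 45.1%), and 42 of the 1026 nearer ones (4.09%, interval 2.97 to 5.49%). The share was 2.55% within 1 kb, 4.13% from 1 to 5 kb, 4.17% from 5 to 10 kb, 6.88% from 10 to 50 kb and 5.56% from 50 to 100 kb. Of the 65, 20 had H3K4me3 in all 4 libraries. The median H3K27me3 score of the 65 in WT mock, 117, was close to the 120 of the nearer ones. Isolation of any H3K27me3 peak went with H3K4me3 too. Over all WT mock peaks, WT mock H3K4me3 overlapped 35.0% of those beyond 100 kb from another WT mock peak and 13.3% of the rest. By this measure the shares were 21.0% (13 of 62) and 4.86% for mock-only peaks. They were 59.3 and 25.2% for peaks found in all 4 lists, and 7.17 and 1.70% for those in no other list. Beyond 100 kb from the other treatment, WT mock H3K4me3 overlapped 12.3% of 73 doxorubicin-only peaks and 7.52% of 226 WT mock peaks in no other list. For the doxorubicin-only peaks the share with H3K4me3 of their own condition, WT doxorubicin, was 16.4%.

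**Figure D5:**
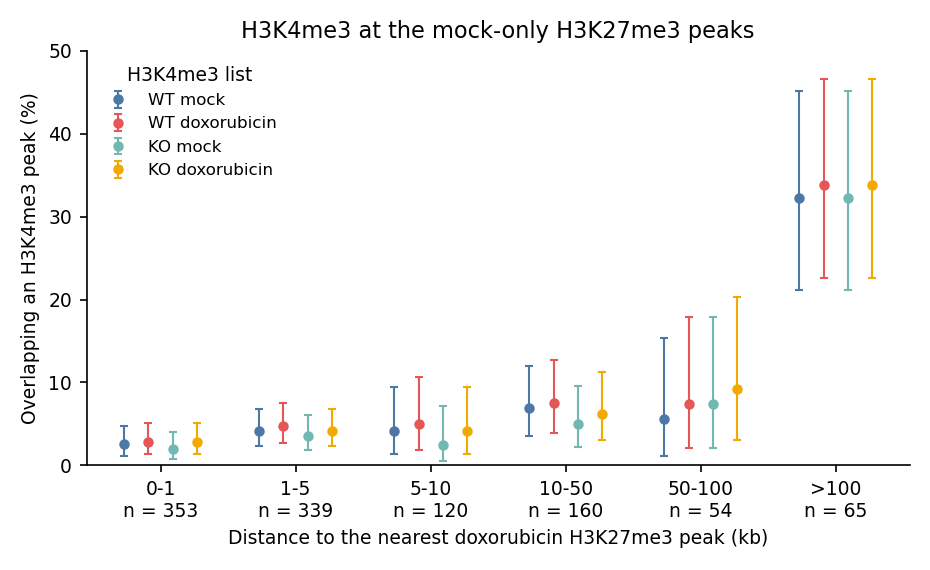
Points give the percentage of mock-only peaks that overlap an H3K4me3 peak of each of the 4 libraries, in 6 classes of distance to the nearest doxorubicin H3K27me3 peak, and bars are exact 95% binomial intervals. For WT mock H3K4me3 the share stays between 2.55 and 6.88% up to 100 kb and stands at 32.3% beyond it, and the other libraries range from 32.3 to 33.8% there.

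The 5 farthest mock-only peaks show this. The farthest, chr4:6915781-6917207, was 1247462 bp from the nearest treated peak, scored 82.5 in WT mock and 140 in KO mock for H3K27me3, and had H3K4me3 scores of 2135 (mock) and 2911 (doxorubicin) in WT and 1333 and 3157 in KO. At chr10:106707653-106709216 the H3K27me3 scores were 148 and 325 and the H3K4me3 scores, in that order, 956, 1917, 490 and 652. At chr6:42273216-42274660 H3K27me3 scored 118 and 83.2, with H3K4me3 scores of 2000, 2695, 1866 and 3070. Its neighbour chr6:42195693-42197430 had H3K27me3 scores of 140 and 221 and weak H3K4me3, with scores of 102, 107, 84.5 and 242. The exception was chr1:161613082-161614995, with scores of 108 and 152, whose nearest WT mock H3K4me3 peak was 358919 bp away. In 4 of the 5, H3K4me3 was listed in every condition while H3K27me3 was listed in the mock conditions alone.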

How the data were processed

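Primary MEF chromatin gave 8 ChIP libraries (2 marks in 4 conditions) and 4 inputs; the inputs were not analysed here. The authors' peak lists give mm9 positions, a peak number and a score, which per the file headers is the −log10 of a p-value times 10. Bowtie 0.12.7, MACS 1.4.2 and mm9 are named per the submitters' processing notes; the deposited lists are named as filtered at 80, and no other filter is given in the sources used here. Peaks were called per library. Deposited starts were read as counted from 0 and printed 1-based. Read depth is unknown.

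Overlap meant at least 1 bp, and distances run edge to edge. Intervals are exact (Clopper-Pearson) 95% intervals over peaks and cover counting error only; neighbouring peaks are not independent. Chains join mock-only peaks with gaps of at most 50 kb. Named peaks are the 10 highest by WT mock score, the 5 widest, the 5 farthest from doxorubicin peaks, the 5 chains with most members and the 10 highest-scoring with H3K4me3 in all 4 lists; others are marked as named after their values were seen. The peaks and these rules were chosen with earlier results of these data known. Lists of genes and cell type markers were planned for an mm9 annotation and not analysed here, and no mm9 sequence was used. The code was tested on simulated lists made from the 16160-peak WT mock list, and recovered 9 of 9 rules. The alternatives tried were scores of 100 or more, an overlap of 50%, absence within 1 or 5 kb, joining of peaks under 3 kb apart, lists of equal length (16160 peaks), counting KO mock peaks, and chain gaps of 25 and 100 kb. Intervals were computed with scipy 1.17.1, tables were handled with pandas 2.3.3 and numpy 2.4.6 in Python 3.11.15, and figures were drawn with matplotlib 3.10.9.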

Additional observations from a re-analysis of the deposited data

How the results depend on the processing

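With 1 library per mark and condition, no replicate could be left out. No paired analysis was possible because the results are values from single libraries with no test; doxorubicin and mock were set side by side within each genotype. The number of mock-only peaks, 1091, was 504 with mock peaks scoring at least 100, 399 with no doxorubicin peak within 5 kb, 578 with peaks under 3 kb apart joined, and 39 with no unused number in either doxorubicin list (chosen after seeing the data); the other 7 settings gave 738 to 1581. Their share of shared peaks, 10.6%, was 6.09% (mock scores of at least 100), 9.84% (all lists), 15.4% (doxorubicin lists), 15.7% (overlap of 50%), 7.17% (1 kb), 3.88% (5 kb), 8.55% (joined), 11.6% (lists of equal length) and 11.5% (KO mock peaks counted). In the opposite direction, the doxorubicin-only share was below the mock-only share in all 7 settings compared, for example 7.82% against 9.84% with scores of at least 100 and 8.23% against 8.55% with peaks joined. The share with a doxorubicin peak within 5 kb, 63.4%, was 55.5% (all lists at 100), 54.1% (doxorubicin lists at 100), 81.1% (overlap of 50%), 37.0% (joined) and 70.4% (KO mock peaks counted). The 81.1% also counts peaks that a doxorubicin peak overlapped over less than 50% of their length, so it is not a like measure. The share near another mock-only peak, 32.0%, was 23.8% at 25 kb, 43.0% at 100 kb, 26.3% with scores of at least 100 and 12.6% joined. H3K4me3 overlap, 5.77%, was 8.16% within 1 kb and 18.7% within 5 kb. Median scores, 119 in WT mock and 114 in KO mock, were 150 and 142 with scores of at least 100, 123 in WT mock joined, and 111 in KO mock with no doxorubicin peak within 1 kb. The H3K4me3 share beyond 100 kb, 32.3%, was 28.1 to 35.2% under 3 settings; that split and its settings were chosen after seeing the data. The causes were not tested.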
